A study of Mus musculus with 60 samples.

Results

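Wild-type (WT) mice that had eaten a diet lacking vitamin B6 were compared with WT mice on a normal diet, in the hippocampus alone. The comparison holds 10 of the 60 RNA-seq libraries of the series, chosen by their labels: 5 hippocampus libraries of WT mice on the lacking diet (mice 225, 226, 241, 246 and 259) and 5 of WT mice on the normal diet (mice 272, 273, 283, 286 and 317). The lacking diet held 5 µg and the normal diet 1.4 mg of vitamin B6 in each 100 g, and both were fed between 8 and 12 weeks of age. The other libraries came from mice with a knockout (KO) of Glo1, which encodes the methylglyoxal-detoxifying enzyme glyoxalase 1, and from the prefrontal cortex and striatum of the same animals. None of the 10 mice carried the Glo1 knockout, every library was a separate mouse, and all 10 bear batch label 2. Poly(A)-selected RNA was read as single ends of 75 bases. The question was which genes and pathways in WT hippocampus differ with dietary vitamin B6, and how large a difference these libraries leave possible.

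Vitamin B6 enters cells as several vitamers, which pyridoxal kinase (Pdxk) phosphorylates on the way to pyridoxal phosphate, the active cofactor. Pyridoxal phosphate is bound by many enzymes of amino acid metabolism, among them the glutamate decarboxylases that make the inhibitory transmitter GABA, aromatic amino acid decarboxylase of the serotonin and dopamine pathways, the aminotransferases, the serine and glycine enzymes, and the transsulfuration enzymes that clear homocysteine. Glycogen phosphorylase holds it as well. Severe lack of the vitamin is known for seizures, which have been linked to low GABA.

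The labels give 1 vitamin B6 level for each mouse, without naming the material measured. In mice 225, 226, 241, 246 and 259 on the lacking diet it was 3.94, 3.02, 3.78, 3.78 and 4.86 ng/µl. In mice 272, 273, 283, 286 and 317 on the normal diet it was 65.63, 58.25, 59.94, 59.94 and 77.48 ng/µl. The groups lay far apart, with means of 3.88 ± 0.656 and 64.2 ± 7.91 ng/µl (SD, n = 5 each). The means differed by -60.4 ng/µl (two-sided exact permutation test over 252 splits, p = 0.00794, the smallest this design allows). Mice 241 and 246 share a level, as do mice 283 and 286.

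The 10 WT libraries held between 9233461 and 11972217 counts, so that 3 counts stand for 0.251 to 0.325 CPM (counts scaled to the library total). The 10 hippocampus libraries of KO mice were fitted with them. RNA integrity numbers of the 10 WT libraries lay between 8.3 and 9.0. Markers of the labelled tissue were present in both groups: Prox1 of dentate granule cells stood at 265 ± 25.3 CPM on the lacking and 271 ± 26.3 CPM on the normal diet, and Wfs1 of CA1 pyramidal cells at 44.4 ± 11.4 and 40.1 ± 7.15 CPM. Ddx3y, Uty, Kdm5d and Eif2s3y, which lie on the Y chromosome, were expressed in all 10 libraries. The libraries of mouse 226 (lacking diet) and mouse 286 (normal diet) stood apart from the rest. Mouse 226 had 14071 genes with at least 1 count, against 14969 to 15586 in the others, and the highest correlation of its log2 CPM with any other of the 10 was 0.973. For mouse 286 that value was 0.982. Both libraries are marked in the plots of single libraries, and for named genes whose value without them moved by over 1.5 times at an unadjusted p under 0.05, the value without them is given.

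No gene in WT hippocampus passed the test for diet. Of 13393 genes tested with edgeR's quasi-likelihood test, 0 (0% of those tested) had a Benjamini-Hochberg adjusted p under 0.05, and the smallest adjusted p was 0.965. At an unadjusted p under 0.05 there were 540 genes (4.03%), 282 of them higher (2.11%) and 258 lower (1.93%) on the lacking diet. DESeq2 and limma also gave 0 genes after adjustment, with 603 and 563 at an unadjusted p under 0.05. Single libraries moved the unadjusted count: it was 1422 of the same 13393 genes (10.6%) without mouse 226 and 410 of them (3.06%) without mouse 286. It was 1041 of 13466 genes (7.73%) without mouse 273, 833 of 13391 (6.22%) without mice 226 and 286, and 282 of 13068 (2.16%) in a fit of the 10 WT libraries alone, with 0 after adjustment in each. The median log2 fold change over all genes was -0.01, and 95% of genes lay between -0.37 and 0.40. On the log2 scale 6483 genes (48.4%) lay above 0. An absolute fold change above 1.5 was estimated for 1.63% of genes and above 2 for 0.261%.

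In 68 genes (0.508%) the CPM of the 2 groups did not overlap, with 39 higher (0.291%) and 29 lower (0.217%) on the lacking diet. The 12 higher and 12 lower of these with the smallest p are named here. All 24 had an adjusted p of 0.965, so their differences describe these 10 libraries. Values below are TMM-scaled CPM in the order of mice given above.

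Among the leading higher genes, Gtf3a encodes the transcription factor of the 5S ribosomal RNA genes, and its CPM were 10.6, 9.38, 10.6, 9.67 and 10.4 on the lacking diet against 8.08, 8.07, 8.00, 6.08 and 7.82 on the normal diet. Its log2 fold change was 0.41 ± 0.12 (SE; 95% interval 1.12-fold to 1.58-fold). The lacking-diet mice lay close together, and mouse 286 was the lowest of the controls. Osbp2, an oxysterol-binding protein, stood at 82.5, 77.5, 82.3, 84.3 and 80.8 CPM against 71.0, 72.3, 62.3, 63.9 and 63.7 CPM, a log2 fold change of 0.29 ± 0.09. The lowest of the lacking-diet libraries was that of mouse 226. Ercc4, the nuclease subunit XPF of nucleotide excision repair, had 22.0, 26.0, 22.8, 22.6 and 22.2 CPM against 19.5, 18.8, 19.7, 19.6 and 19.4 CPM, a log2 fold change of 0.25 ± 0.08. Here the normal-diet libraries lay within 1 CPM of each other and mouse 226 was the highest of all. Ghdc was pulled up by the same library: it had 4.25, 8.74, 4.27, 4.63 and 5.55 CPM against 4.15, 2.60, 3.43, 3.33 and 3.36 CPM, and its log2 fold change of 0.70 dropped to 0.48 without mice 226 and 286.

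Tes, which encodes the focal adhesion protein testin, had the largest fold among these higher genes at a low level. Its CPM were 1.36, 1.17, 1.42, 1.40 and 1.54 against 0.311, 0.464, 0.831, 0.689 and 0.637, a log2 fold change of 1.23 ± 0.36 with a 95% interval of 1.39-fold to 3.93-fold. Faap100 belongs to the Fanconi anaemia core complex of DNA repair, and Atp13a1 is an ATPase of the endoplasmic reticulum. Faap100 had 2.72, 2.03, 2.37, 2.64 and 2.13 CPM against 1.97, 1.76, 0.727, 0.918 and 1.09 CPM (log2 fold change 0.87 ± 0.28). For Atp13a1 the values were 18.3, 13.0, 16.2, 13.9 and 13.1 CPM against 11.2, 12.2, 11.3, 7.92 and 12.5 CPM (log2 fold change 0.43 ± 0.14). In both genes the highest control came close to the lowest lacking-diet mouse. The remaining higher genes were Hgs of the endosomal sorting machinery, Klhdc8a, the splicing cofactor gene Raver1, 2900026A02Rik and the kinase gene Snrk, with log2 fold changes of 0.31, 0.82, 0.27, 0.26 and 0.22. Some counts cannot be assigned to 1 gene with certainty: 99.7% of the 75-base stretches of the Raver1 transcript are shared with annotated transcripts of other genes, and 59.1% of the exon bases of Gtf3a overlap exons of Mtif3.

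Among the lower genes, Zcchc16 (now Rtl4), derived from a retrotransposon, had the smallest p of all genes (0.000309). Its CPM were 8.33, 7.25, 7.30, 7.44 and 9.73 on the lacking diet against 10.6, 12.4, 11.1, 17.3 and 9.91 on the normal diet. This gave a log2 fold change of -0.61 ± 0.14 (95% interval 0.533-fold to 0.807-fold); mouse 286 was the highest control by a wide margin. Without mice 226 and 286 it was -0.42. Cr2, complement receptor 2, had 0.996, 1.07, 0.474, 0.578 and 1.02 CPM against 2.18, 1.76, 1.45, 2.30 and 1.82 CPM (log2 fold change -1.19 ± 0.31), a low level in every library. Phka1 encodes a regulatory subunit of phosphorylase kinase, which activates the B6-holding glycogen phosphorylase. It had 39.6, 31.3, 39.4, 35.7 and 38.4 CPM against 45.0, 44.7, 46.8, 40.5 and 49.3 CPM, a log2 fold change of -0.29 ± 0.08.

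Slitrk2, a synaptic adhesion protein, was the most abundant of the 12 lower genes named here. Its CPM were 91.1, 98.0, 88.9, 92.9 and 92.6 against 105, 105, 110, 113 and 111, a log2 fold change of -0.23 ± 0.07 (95% interval 0.772-fold to 0.937-fold). Hnmt, which inactivates histamine in the brain, had 27.6, 31.6, 31.6, 32.7 and 33.1 CPM against 34.9, 36.4, 38.8, 38.9 and 37.6 CPM, a log2 fold change of -0.25 ± 0.08. Histamine is made by the B6-dependent histidine decarboxylase, whose gene Hdc was counted at 1.24 ± 0.435 and 1.40 ± 0.576 CPM. Vps36, of the endosomal sorting machinery, had a log2 fold change of -0.27 ± 0.08, and Mtx2, of mitochondrial protein import, -0.22 ± 0.07. The rest were Spink10, Amn1, Tbc1d12, 2300009A05Rik and Phyhd1, with log2 fold changes of -1.36, -0.35, -0.32, -0.44 and -1.20. That of 2300009A05Rik was -0.24 without mice 226 and 286, and 32.3% of its exon bases overlap exons of Gm16759. Spink10 and Phyhd1 were below 2 CPM in every library, and 54.3% of the 75-base stretches of Phyhd1 are shared with transcripts of other genes.

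**Figure D1:**
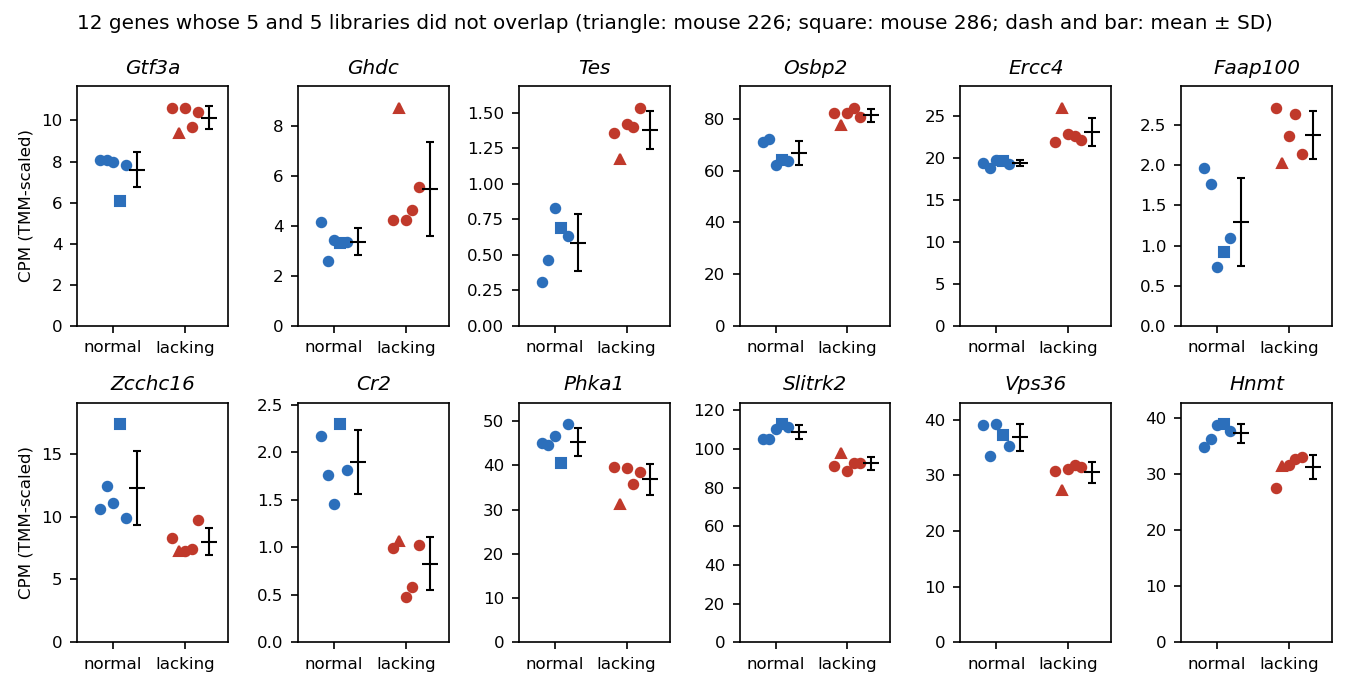
TMM-scaled CPM of 12 of the named genes in each of the 10 WT hippocampus libraries, with the normal diet in blue and the lacking diet in red; the dash and bar give the mean and SD of 5 mice. The genes were chosen because their groups do not overlap. Mouse 226 (triangle) is the highest or lowest of the 10 libraries in Ghdc, Ercc4, Phka1, Vps36 and Zcchc16. Mouse 286 (square) is so in Gtf3a, Zcchc16, Cr2, Slitrk2 and Hnmt.

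The higher and lower genes differ in base composition, which is why 4 coding starts are printed. They are the 2 most GC-rich of the higher and the 2 most GC-poor of the lower named genes, leaving out Spink10 and genes whose 75-base stretches are shared by over 10%. Each line holds the first 75 bases of the coding sequence, the length of 1 read, 5′ to 3′ with G and C in capitals, from the GENCODE M21 transcripts of GRCm38.
Faap100: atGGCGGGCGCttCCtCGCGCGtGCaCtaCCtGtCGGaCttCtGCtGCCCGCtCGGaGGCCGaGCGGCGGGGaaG
Atp13a1: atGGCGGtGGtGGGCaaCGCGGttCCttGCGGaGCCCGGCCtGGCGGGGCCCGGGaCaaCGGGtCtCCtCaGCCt
Hnmt: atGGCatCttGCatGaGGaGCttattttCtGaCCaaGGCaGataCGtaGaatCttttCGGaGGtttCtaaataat
Zcchc16: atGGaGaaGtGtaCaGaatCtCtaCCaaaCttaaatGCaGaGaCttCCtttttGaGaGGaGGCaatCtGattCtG

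G and C make up 72% of the stretch of Faap100 and 73.3% of that of Atp13a1, against 38.7% for Hnmt and 40% for Zcchc16. Over the whole coding sequence the shares are 60.9%, 58.4%, 40.6% and 43.9%. In GRCm38 coordinates Faap100 spans chr11:120369562-120378746, Atp13a1 chr8:69791163-69807749, Hnmt chr2:24002911-24049758 and Zcchc16 chrX:144688209-145122414. The values by GC content over all genes follow further on.

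The genes that handle vitamin B6 itself differed little between the diets, and those with enough counts were measured closely. Of the 5 listed, 4 were tested and Pdxp, the phosphatase of pyridoxal phosphate, was not analysed here. Pdxk (chr10:78436747-78464948 in GRCm38) had 104, 91.8, 103, 109 and 98.8 CPM on the lacking diet against 99.8, 101, 97.6, 79.9 and 99.0 CPM on the normal diet. The groups overlapped, and the log2 fold change was 0.09 ± 0.07, with a 95% interval of 0.953-fold to 1.18-fold. Prosc (now Plpbp), a pyridoxal phosphate-binding protein, had 66.6, 58.3, 57.6, 59.6 and 59.2 CPM against 55.3, 67.7, 50.8, 56.0 and 67.1 CPM, with an interval of 0.894-fold to 1.15-fold. Alpl, the tissue-nonspecific alkaline phosphatase that lets pyridoxal phosphate enter cells as pyridoxal, had 5.34, 5.01, 6.92, 7.44 and 4.61 CPM against 8.29, 6.31, 3.74, 6.66 and 4.91 CPM. Aox1, which oxidises pyridoxal for excretion, had 9.32, 5.65, 7.20, 10.1 and 5.98 CPM against 5.91, 13.3, 6.86, 6.43 and 9.64 CPM. The intervals of these last genes were wider, at 0.743-fold to 1.30-fold for Alpl and 0.665-fold to 1.24-fold for Aox1. Of the exon bases of Pdxk, 39% overlap other annotated genes, so part of its counts cannot be assigned with certainty.

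Among enzymes that use pyridoxal phosphate, 1 of 36 tested genes had an unadjusted p under 0.05, Shmt2, against 4.03% of all genes, and 0 passed after adjustment. For GABA, Gad1 stood at 347, 366, 328, 354 and 388 CPM against 365, 361, 332, 446 and 360 CPM. This is a log2 fold change of -0.06 ± 0.07 with a 95% interval of 0.866-fold to 1.06-fold. Its paralogue Gad2, named outside the rule, averaged 327 ± 36.9 and 339 ± 55.6 CPM, a log2 fold change of -0.05, and the GABA transaminase gene Abat 242 ± 17.8 and 249 ± 23.6 CPM. Ddc, the decarboxylase of the monoamine pathways, was counted at 4.69 ± 1.28 and 3.98 ± 0.816 CPM, with an interval of 0.872-fold to 1.58-fold. In this list of 6, 1 gene lay above 0 on the log2 scale, the median was -0.06 against -0.01 over all genes tested, and 4 intervals lay within 1.5-fold.

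Shmt2, the mitochondrial enzyme that passes a carbon unit from serine to folate, had 8.51, 7.36, 10.3, 8.51 and 7.00 CPM on the lacking diet and 6.84, 8.16, 4.78, 3.90 and 5.09 CPM on the normal diet. Its groups overlapped through mouse 273 alone, and the log2 fold change was 0.53 ± 0.19 (edgeR, unadjusted p = 0.00975, adjusted p = 0.965). After the GC trend described further on was removed it was 0.45. The transsulfuration genes lay on opposite sides of 0: Cbs at 0.18 ± 0.13 and Cth at -0.40 ± 0.26. Over the 9 tested genes of serine, glycine and sulfur amino acids, 5 lay above 0 with a median log2 fold change of 0.07.

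Of the 10 aminotransferases tested, 5 lay above 0 and the median was -0.01. Got2, the mitochondrial aspartate aminotransferase, had 82.8, 85.6, 83.1, 98.0 and 88.7 CPM against 94.2, 80.7, 67.3, 73.2 and 70.1 CPM. Its log2 fold change was 0.19 ± 0.09, and the groups overlapped because mouse 272 was the second highest of the 10. Of the 75-base stretches of Got2, 23.6% are shared with transcripts of other genes. The 11 tested genes of sphingolipid, heme, polyamine and glycogen metabolism had a median of -0.01. At one end stood Etnppl, the phosphoethanolamine lyase of astrocytes, with -0.45 ± 0.22. Its lacking-diet libraries held 23.5 to 30.5 CPM, while the controls ran from 22.8 to 63.0 CPM, and mice 283 and 317 were the controls above the lacking-diet range. Aadat, Agxt, Agxt2, Tat, Sds, Sdsl, Kynu and Sptlc3 of these lists were too low to test, with at most 12 counts in any of the 10 libraries.

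**Figure D2:**
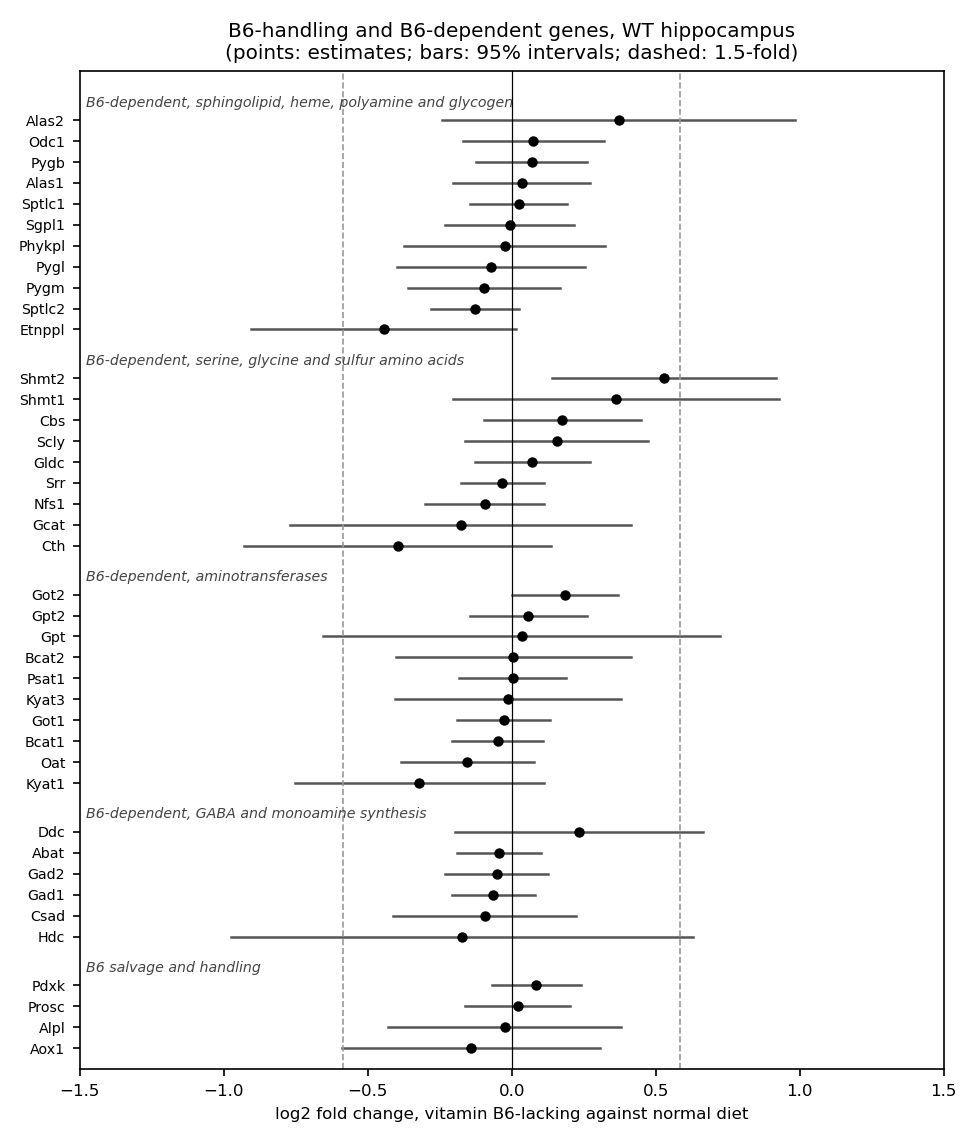
Log2 fold change (lacking against normal diet) of each tested gene that handles vitamin B6 or encodes a B6-dependent enzyme in WT hippocampus; points are estimates, bars 95% intervals, and dashed lines mark 1.5-fold. Only the bar of Shmt2 lies wholly on one side of 0, before any adjustment, and 29 of the 40 bars lie between the dashed lines.

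Downstream of these enzymes, the transmitter systems showed small estimates. Of 13 GABA-A receptor subunits tested, 12 lay below 0 and 1 above, with a median log2 fold change of -0.10 against -0.01 for all genes. The median was -0.15 without mouse 226 and -0.03 without mouse 286. In all 1 of the 13, Gabrb1, had an unadjusted p under 0.05, against 4.03% of all genes, at 849 ± 65.0 and 927 ± 55.7 CPM (log2 fold change -0.13 ± 0.06). These subunit genes are GC-poor, with a median transcript GC content of 44.1% against 50.7% over all genes, and the median of their log2 fold changes was 0.00 once each library's GC trend was removed. Of 8 genes of GABA transport and breakdown, 3 lay above 0. Glul, the glutamine synthetase of astrocytes, averaged 2434 ± 186 and 2706 ± 277 CPM, a log2 fold change of -0.15 ± 0.07 with an unadjusted p of 0.0364. Without mouse 286 this was -0.09, and without mice 226 and 286 it was -0.08 with an unadjusted p of 0.216 in edgeR. Glutamate receptors split 14 above and 8 below 0 (median 0.03), the 10 serotonin receptors tested 3 above and 7 below (median -0.10), and 10 genes of adrenergic receptors and monoamine breakdown 5 and 5. In each of these last 3 lists 0 genes had an unadjusted p under 0.05.

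Homocysteine and one-carbon enzymes that do not use B6 gave 5 of 18 above 0, with a median of -0.07. Ahcyl1, related to the enzyme that splits S-adenosylhomocysteine, was the 1 of the 18 with an unadjusted p under 0.05, against 4.03% of all genes. It had 482, 464, 460, 467 and 473 CPM against 515, 483, 524, 504 and 543 CPM, groups that did not overlap (0.508% of all genes), and a log2 fold change of -0.13 ± 0.05. The methylglyoxal-detoxifying enzymes, the system of the gene deleted in the KO mice, had 4 of 11 above 0 and a median of -0.08. Of 12 kynurenine pathway genes, several of which use pyridoxal phosphate, 4 were counted highly enough to test and all 4 lay below 0, none at an unadjusted p under 0.05.

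Of 21 cholesterol synthesis genes 2 were higher at an unadjusted p under 0.05, against 2.11% of all genes on that side, and 0 passed after adjustment. Srebf2, the transcription factor that turns the pathway on, stood at 54.1, 53.2, 58.6, 54.4 and 49.9 CPM against 44.9, 50.0, 49.0, 27.4 and 44.8 CPM, with mouse 286 far below the other controls. Without that mouse the log2 fold change was 0.20, and in the full set of libraries 0.32 ± 0.12. Dhcr7, of the last steps, had 11.8, 15.5, 16.9, 13.1 and 13.9 CPM against 11.7, 10.1, 10.3, 10.8 and 12.5 CPM, and its groups overlapped. Its log2 fold change was 0.36 ± 0.14, the adjusted p was 0.965 for both genes, and the list's median was 0.02.

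Stress and activity programmes had medians near that of all genes. The 21 immediate early genes had a median of 0.00 (0.14 without mice 226 and 286), with Egr3 the 1 at an unadjusted p under 0.05 (0.33 ± 0.15), and the 15 glucocorticoid-responsive genes a median of 0.01. Amino acid and endoplasmic reticulum stress genes stood at 0.04 (18 genes), antioxidant and glutathione genes at 0.00 (25 genes) and heat shock proteins at -0.05 (17 genes). Of the antioxidant genes Txnrd1 (0.16 ± 0.07) and of the heat shock genes Hspe1 (-0.32 ± 0.15) had an unadjusted p under 0.05. Egr3, Txnrd1 and Hspe1 are each 1 gene of their list, against 4.03% of all genes. Circadian clock and output genes lay above 0 in 13 of 17 with a median of 0.08, which became 0.01 with the GC trend removed.

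Mitochondrial and housekeeping lists were longer, but their genes rest on the same libraries and are not independent replicates. Between mice, the mean log2 CPM of complex I subunits had an SD of 0.134 on the lacking and 0.117 on the normal diet. Respiratory complex I subunits (36 tested) had a median of 0.03, subunits of complexes II to V (39) -0.01, and glycolysis and tricarboxylic acid cycle enzymes (32) 0.02, with 0 at an unadjusted p under 0.05 in the 3 lists. Every one of the 32 glycolysis and cycle enzymes had a 95% interval within 1.5-fold. Mitochondrial ribosomal proteins (76) had a median of -0.01 and 3 genes at an unadjusted p under 0.05, against 4.03% of all genes: Mrpl36 (-0.30), Mrpl50 (-0.20, and -0.12 without mouse 286) and Mrpl54 (0.44). Cytosolic ribosomal proteins (77) stood at 0.00 and proteasome subunits (36) at -0.02.

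**Figure D3:**
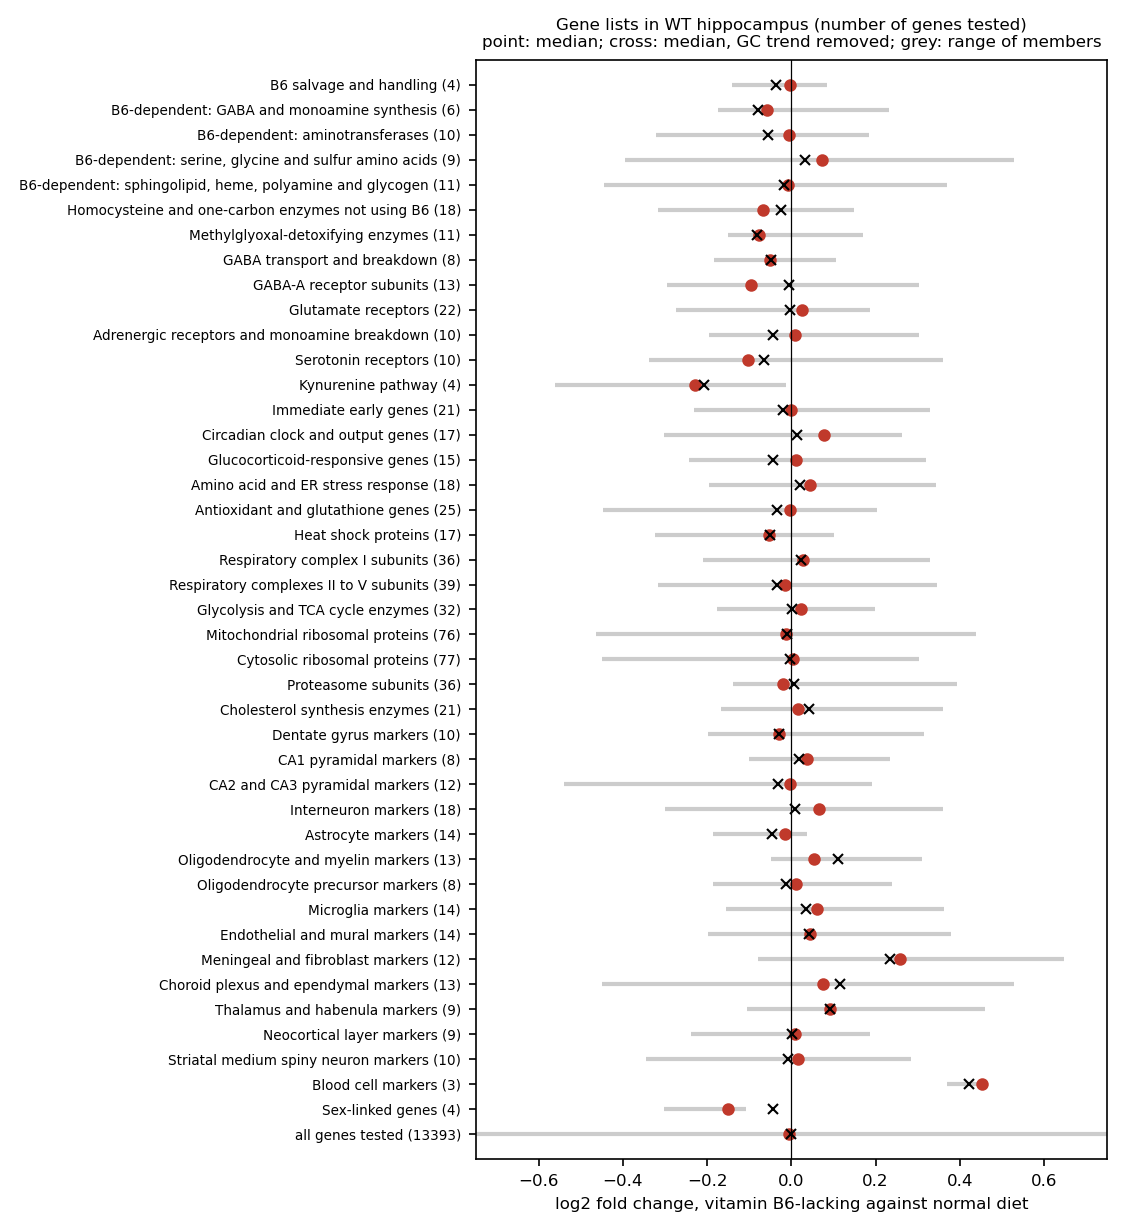
Median log2 fold change (lacking against normal diet) of 42 gene lists and of all genes tested in WT hippocampus, with the number of genes tested; red points are the medians, crosses the medians after removal of each library's GC trend, and grey bars the range of the members (the bar for all genes runs beyond the axis). Most medians lie within 0.1 of 0, and the blood, meningeal and kynurenine lists lie farthest out.

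Markers of the cell types and of neighbouring tissue bear on these values, since in bulk tissue fewer cells of a type and less RNA per cell cannot be told apart. Summed over each list, dentate gyrus markers ran from 1033 to 1312 CPM on the lacking and 1168 to 1439 CPM on the normal diet, CA1 markers from 722 to 848 and 704 to 806 CPM, and astrocyte markers from 11928 to 12978 and 11675 to 13962 CPM. These ranges overlapped, as did those of interneuron, oligodendrocyte, microglial and endothelial markers. Of the 14 astrocyte genes 1 had an unadjusted p under 0.05, against 4.03% of all genes: the glutamate transporter gene Slc1a3, with a log2 fold change of -0.15 ± 0.07 and -0.08 without mouse 286. Of the 9 neocortical markers tested it was Rorb, with -0.24 ± 0.10 and -0.14 without mouse 286.

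Choroid plexus was present in unequal amounts within both diets. Ttr, transthyretin, the main product of that tissue, was at 518, 35.7, 57.7, 1189 and 19.9 CPM on the lacking diet and 1018, 903, 21.4, 16.1 and 11.5 CPM on the normal diet. The summed 13 markers of choroid plexus and ependyma ran from 78.0 to 1527 CPM and from 60.5 to 1313 CPM, and 0 of the 13 had an interval within 1.5-fold. Mice 225 and 246 on the lacking diet and mice 272 and 273 on the normal diet were the high ones. No defining marker of this tissue among those tested was at 0 in a group mean, but tested genes had already passed the count filter. The absence of such a mean therefore says little about the tissue.

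Meningeal and blood markers were higher in mean on the lacking diet, with wide spreads. Of 12 meningeal and fibroblast markers 11 lay above 0 with a median log2 fold change of 0.26, and 0 had an unadjusted p under 0.05. The median was 0.45 without mouse 226 and 0.39 without mice 226 and 286. In the hippocampus of KO mice the list's median was -0.47. In the prefrontal cortex and striatum of the same WT mice it was -0.27 and -0.32. The summed list ran from 319 to 909 CPM on the lacking and from 324 to 693 CPM on the normal diet. Ptgds, which meninges and oligodendrocytes express, had 147, 73.1, 315, 288 and 176 CPM against 165, 191, 83.5, 67.5 and 131 CPM. The haemoglobin gene Hbb-bs had 19.6, 13.1, 19.4, 16.2 and 13.8 CPM against 8.71, 14.3, 12.7, 13.0 and 11.5 CPM, a log2 fold change of 0.45 ± 0.14 with an unadjusted p of 0.00448. Only 3 of 10 blood markers were tested, and 55.8% of the 75-base stretches of Hbb-bs are shared with transcripts of other genes. The median of these 3 markers was 0.45 in WT and -0.09 in KO hippocampus. In WT prefrontal cortex and striatum it was 0.22 and 0.16. The part of meninges, choroid plexus and blood in the other genes' differences was not tested.

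The size of change left possible depended mainly on a gene's level. The coefficient of biological variation between mice was 13.3%. The 95% interval of the fold change lay wholly within 1.5-fold in either direction for 10310 genes (77%), within 2-fold for 93% and within 3-fold for 99%. An interval within 1.1-fold was reached by 0.567% of genes. With intervals widened by Bonferroni over all genes tested, so that they hold jointly, 19.2% lay within 1.5-fold, 60.2% within 2-fold, 82.2% within 3-fold and 89% within 4-fold.

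For genes with a mean above 100 CPM the median half-width of the interval was 1.12-fold, and 99.6% had an interval within 1.5-fold. Between 30 and 100 CPM these values were 1.15-fold and 99.0%, between 10 and 30 CPM 1.21-fold and 93.6%, and between 3 and 10 CPM 1.33-fold and 56.3%. Between 1 and 3 CPM the half-width was 1.59-fold and 4.64% lay within 1.5-fold, and at 1 CPM or less it was 1.93-fold and 14.7% lay within 2-fold. For Gad1, Abat, Pdxk and Prosc, then, changes beyond 1.5-fold lay well outside the interval of each gene taken alone. Hdc, Cth and Shmt1, all under 3 CPM, were left with intervals reaching past 1.5-fold. The intervals of Tes (1.39-fold to 3.93-fold) and Cr2 (0.282-fold to 0.681-fold) left both small and large differences possible.

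**Figure D4:**
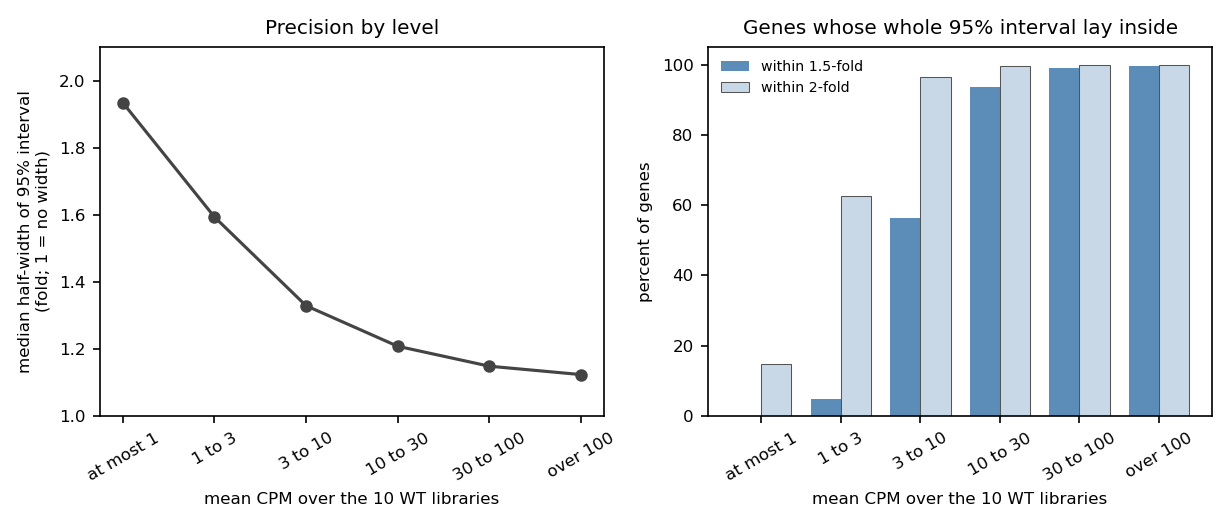
Left, median half-width of the 95% interval of the diet fold change by mean CPM over the 10 WT libraries; right, percent of genes whose whole interval lay within 1.5-fold or 2-fold in either direction. The half-width narrows from 1.93-fold at 1 CPM or less to 1.12-fold above 100 CPM.

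Across genes, the estimated diet difference followed the GC content of the transcript. Transcript GC content was matched for 99.8% of the tested genes. Spearman's rho between it and the log2 fold change was 0.42 across 13361 genes, which all rest on the same 10 libraries and are not independent replicates. In 5 groups of equal size from GC-poor to GC-rich, the median log2 fold change was -0.08, -0.04, 0.00, 0.05 and 0.10, and 19.3% of the GC-poor group lay above 0 against 73.7% of the GC-rich group. The 4 genes whose coding starts are printed above were picked by GC content within the higher and lower sets, so they cannot test this. Not every named gene followed the trend. For example, Tes was among the higher with a GC content of 46.5%, against a median of 50.7% over all genes. Among the lower, 2300009A05Rik had 57.1% and Phyhd1 53.4%.

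The same measure varied from mouse to mouse within each diet. The rho between a library's deviation from the mean log2 CPM of each gene and GC content was 0.35, -0.39, 0.49, 0.31 and 0.09 in the lacking-diet mice and 0.14, 0.32, -0.35, -0.44 and -0.32 in the normal-diet mice. In all, 4 of 5 lacking-diet libraries leaned towards GC-rich genes and 3 of 5 controls towards GC-poor genes. Mouse 226 and the control mice 272 and 273 leaned the other way from the rest of their groups. Without mice 226 and 286 the rho of the diet difference was 0.49. In the prefrontal cortex and striatum of the same mice it was 0.02 and 0.16 (13895 genes). In the hippocampus of KO mice, where the diets were compared in 10 other mice, it was -0.50.

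When each library's smooth trend with GC content was removed in the fit, a choice made after seeing the data, the rho was -0.01 and 433 of 13361 genes (3.24%) had an unadjusted p under 0.05, with 0 after adjustment. Of the 24 named genes 20 moved towards 0 by part of their difference, for example Gtf3a from 0.41 to 0.32, Hnmt from -0.25 to -0.14, Slitrk2 from -0.23 to -0.15 and Raver1 from 0.27 to 0.18. The other 4 were Tes (1.23 to 1.28), Snrk (0.22 to 0.22), 2300009A05Rik (-0.44 to -0.55) and Phyhd1 (-1.20 to -1.25). The Y-linked genes, all GC-poor, had a median of -0.15 before and -0.04 after.

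**Figure D5:**
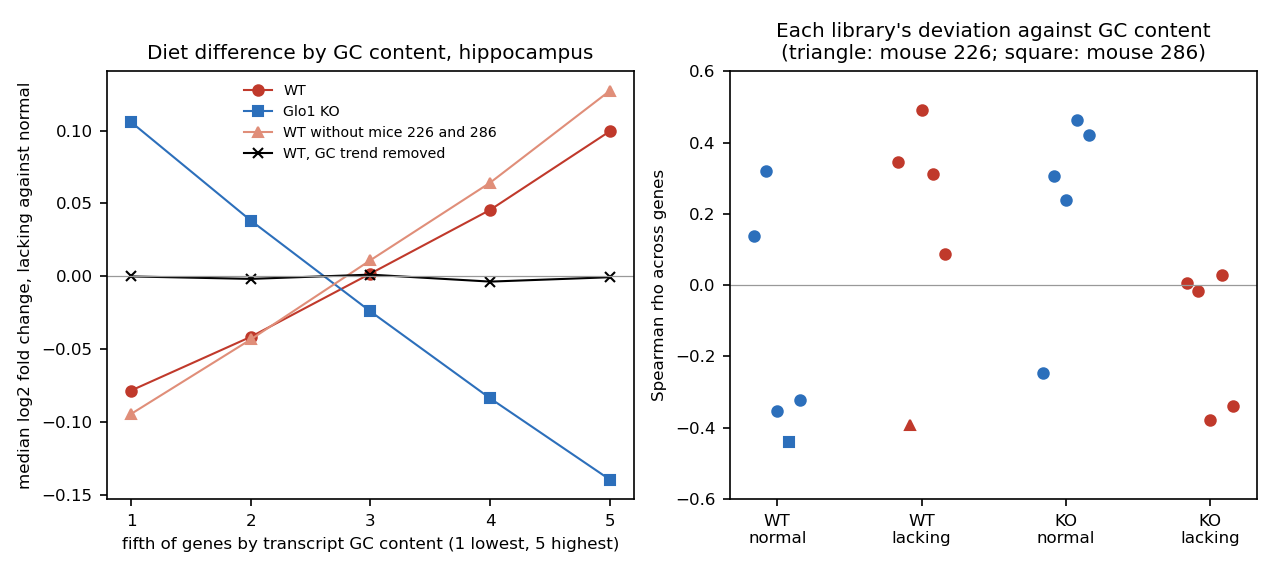
Left, median log2 fold change (lacking against normal diet) in 5 groups of genes by transcript GC content for WT and Glo1 KO hippocampus, for WT without mice 226 and 286, and for WT after removal of each library's GC trend. With all mice and no trend removed, the median runs from -0.08 (GC-poor) to 0.10 (GC-rich) in WT and from 0.11 to -0.14 in KO. Right, Spearman's rho across genes between each of the 20 libraries' deviation and GC content. Libraries fall on both sides of 0 in each of the 4 groups of mice.

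Compared with the hippocampus of KO mice, the diet difference in WT mice was not shown to differ for any single gene. The genotype by diet interaction gave 0 genes (0%) after adjustment by edgeR, with a smallest adjusted p of 0.514. At an unadjusted p under 0.05 there were 1265 genes (9.45%), and 608 of 13361 (4.55%) with the GC trends removed. Without mouse 226 the unadjusted count was 2771, without mouse 273 it was 2076 and without mouse 286 it was 820. KO libraries carry another batch label than WT libraries, which cancels within each genotype only where it shifts both diets alike. For Zcchc16 the diet log2 fold change was 0.19 in KO against -0.61 in WT mice. For Cr2 it was 0.58 against -1.19, and for Shmt2 -0.32 against 0.53; the adjusted interaction p of edgeR was 0.514 for each of these genes. Of the 12 higher named genes 9 lay below 0 in KO mice and of the 12 lower ones 11 lay above 0. Over all genes tested, 6329 of 13393 lay above 0 in KO mice. The named genes were chosen by their WT values. The trend of the diet difference with GC content ran the other way in KO mice (rho -0.50, against 0.42 in WT). The part of that trend in these signs was not tested.

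The diet difference in hippocampus was likewise set against that in the other regions of the same 10 mice, in a fit of all 60 libraries (13930 genes). The difference from prefrontal cortex gave 0 genes (0%) after adjustment and 378 (2.71%) at an unadjusted p under 0.05; that from striatum gave 0 (0%) and 391 (2.81%). The smallest adjusted p were 0.914 and 1.00. Without mouse 226 the count for prefrontal cortex was 730, with 0 after adjustment. Ghdc was 0.70 in hippocampus and -0.15 and -0.19 in cortex and striatum, with unadjusted p of 0.00173 and 0.00112 for the differences in edgeR. These p draw on the hippocampus values for which Ghdc was named, so the choice of gene favours small p. Without mice 226 and 286 the hippocampus value of Ghdc was 0.48. Tes had 0.80 in cortex and -0.25 in striatum, and Phyhd1, -1.20 in hippocampus, had -1.03 in cortex and 0.22 in striatum. Pdxk lay at 0.05 and -0.01 in the other regions, and none of the 4 B6-handling genes had an unadjusted p under 0.05 for either regional difference.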

How the data were processed

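Hippocampus RNA of 10 WT mice, 5 per diet, was sequenced after poly(A) selection. The vitamin B6 level of each mouse and the RNA integrity number of each library were taken from the labels. The authors deposited raw counts per gene for 21999 genes in 60 libraries, and RPKM, in which each count is divided by the gene's length and by the library's total. The submitters' processing notes name STAR 2.7.1a, HTSeq 0.9.1 and the genome build mm10; the gene annotation and the strand setting are not given in the sources used here, so antisense overlaps could not be separated. Columns were assigned to samples through the names they carry, with 0 left over.

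Deposited counts of all 20 hippocampus libraries were fitted with 1 mean per group in edgeR 4.0.16 (R 4.3.3): filterByExpr with a minimum count of 10, TMM factors, quasi-likelihood F-test, Benjamini-Hochberg adjustment over all genes tested with a threshold of 0.05. All 4 groups of the region share the estimate of the spread. The standard error was the log2 fold change divided by the square root of F, and 95% intervals used the t quantile. Fold changes are lacking minus normal diet. CPM are TMM-scaled, and log2 CPM used a prior count of 2. The regional comparison was fitted on all 60 libraries. No pair of libraries within a group agreed within sampling noise.

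DESeq2 1.42.0, limma 3.58.1 on log2(RPKM + 1) with the deposited RPKM, other scalings and filters, RNA integrity as a covariate and the omission of each mouse were alternatives. After the data were seen, the lowess trend of each library with transcript GC content (GENCODE M21, span 0.3) was removed through the offsets, and mice 226 and 286 were left out together. Named genes were the 12 higher and 12 lower non-overlapping genes with the smallest p, all B6-handling genes, and up to 3 of smallest p in each other list, 42 lists in all. Some members of these lists are not reported here and were left out of the lists' counts and medians. The comparison and the lists were chosen with earlier results of these data known.

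The same animal gave all 3 regions, so same-numbered libraries of different regions are paired. The regional counts come from a fit without a block for the mouse, and a fit with that block was an alternative. Deviations of hippocampus and prefrontal cortex from their group means had a mean correlation of 0.03 within a mouse and -0.01 between mice of a group, and hippocampus and striatum 0.04 and -0.01.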

Additional observations from a re-analysis of the deposited data

Results flagged for a closer look

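The values of each group of 5 mice were screened for a highest or lowest mouse whose gap to its neighbour exceeds Dixon's 95% limit. Over 154 groups of values, 19 were found. Chance flags about 1 in 20 groups where they are independent. These groups share the same libraries and some genes, and part of the genes were picked for not overlapping. That rate therefore cannot be set against the count found. Mouse 226 gave 6 of the 19 and mouse 286 gave 5.

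On the lacking diet, mouse 226 stood apart in its number of genes with a count (14071, next 15494), in the CPM of Ghdc (8.74, next 5.55), Ercc4 (26.0, next 22.8) and Vps36 (27.3, next 30.8), and in the mean log2 CPM of CA2 and CA3 markers (3.70, next 4.05) and of all genes tested (4.32, next 4.45). Mouse 225 stood apart in Hnmt (27.6 CPM) and Prosc (66.6 CPM), and mouse 241 in the mean log2 CPM of adrenergic receptors and monoamine breakdown (3.30).

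On the normal diet, mouse 286 stood apart in Gtf3a (6.08 CPM), Raver1 (23.2 CPM), Pdxk (79.9 CPM) and the mean log2 CPM of glycolysis and tricarboxylic acid cycle enzymes (6.83) and dentate gyrus markers (6.14). Mouse 272 was high in the mean log2 CPM of complex I subunits (5.10), complexes II to V (6.02) and mitochondrial ribosomal proteins (4.11). Mouse 317 was high in cholesterol synthesis enzymes (4.68), and mouse 273 low in neocortical markers (5.02).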

How the results depend on the processing

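The count of 0 genes past the adjusted threshold for the WT diet difference, the genotype by diet interaction and both regional differences was the same under every alternative run. Unadjusted counts for the diet difference ran from 377 to 1424 as mice were left out and were 810 with RNA integrity as a covariate; for the regional differences that covariate gave 390 and 738. With the mouse as a replicate block, the regional differences had 0 genes past the threshold, and 394 and 428 at an unadjusted p under 0.05. Intervals within 1.5-fold numbered 9798 to 10547 (9656 to 10267 as mice were left out) except 12980 in limma, where the pseudocount of 1 shrinks low genes. The vitamin B6 difference was -60.4 ng/µl, ran from -61.9 to -57.1 as mice were left out, and as a difference of medians was -56.2 with an exact permutation p of 0.119. Some genes changed sign on the log2 scale, all without passing the test, and the cause was not tested. Of those listed here, Folr1 and Sostdc1 moved the most and were not confined to values near 0. Alpl was 0.0019 in limma. With the GC trend removed Gad2 was 0.017, and without mice 226 and 286 Alpl was 0.070, Gad1 0.0030, Gad2 0.019 and Pcp4 0.038. As mice were left out, Prosc ran from -0.031 to 0.082, Alpl from -0.15 to 0.12, Aox1 from -0.26 to 0.094, Gad1 from -0.10 to 0.014, Gad2 from -0.093 to 0.062, Pcp4 from -0.16 to 0.0054, Folr1 from -0.27 to 1.05 and Sostdc1 from -1.01 to 0.023. Depth limits genes under 3 CPM, and intervals cover the spread between these mice only.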
